A study of Mus musculus with 4 samples.

Results

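The distal convoluted tubule was followed here through the tissue spots in which its marker RNA was densest. In each of 4 mouse kidney sections, the 5% of spots with the highest share of Slc12a3 and Pvalb in their total UMIs (unique molecular identifiers, each standing for a captured RNA molecule) were chosen among spots with at least 1000 UMIs. This gave 507 spots of 10132 that passed the UMI minimum and of 10312 over tissue, with 130 in normal 1, 131 in normal 2, 118 in ischemic 1 and 128 in ischemic 2. The measured share of these 2 genes chose the spots, so their levels in the spots are given as a description with no test.

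The sections were cut at 10 µm from left kidneys of male wild-type C57BL/6J mice of 7 to 8 weeks and measured on a spatial capture array, on which a spot is a small region that can hold parts of several cells of different types. Both ischemic sections came from kidneys taken 24 h after both renal pedicles had been clamped for 30 min, and both normal sections from kidneys labelled as normal controls, which the labels do not call sham-operated. All 4 sections lay on 1 slide, with the normal sections in capture areas D1 and C1 and the ischemic sections in B1 and A1, so condition and position on the slide cannot be told apart. The study describes 2 mice per condition, and which mouse each section came from is not given. The p-values of the comparisons of conditions therefore measure the spread between sections, which may be technical. Tests of differences between sets of spots had the section as a block. Their p-values do not measure the spread of section levels. They set the difference against its variation from section to section, estimated with pooling over genes. Each gene alone had 2 residual degrees of freedom against the other spots and 4 against the proximal tubule and thick limb spots. Very small p-values therefore do not measure how a single gene varied between sections.

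The distal convoluted tubule is the short stretch of nephron after the macula densa. Its cells take up sodium and chloride from the tubular fluid through the thiazide-sensitive cotransporter NCC, encoded by Slc12a3, and the WNK kinases, their partner kinase SPAK and the KLHL3-cullin 3 ubiquitin ligase set how active NCC is. The same segment makes the final adjustment of magnesium through the channel TRPM6, while its late part and the connecting tubule that follows it reabsorb calcium with the help of calbindins. It is rich in mitochondria, which feed the basolateral sodium pump.

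Slc12a3 gave most of the marker UMIs in the chosen spots of every section. Pvalb, which encodes the calcium buffer parvalbumin of the early distal convoluted tubule, hardly contributed in ischemic tissue. It made up 19.7% and 16.4% of these marker UMIs in normal 1 and 2, but 0.60% and 0.22% in ischemic 1 and 2. All chosen spots held a Slc12a3 UMI. Pvalb was seen in 116 chosen spots of normal 1 (89.2%) and 102 of normal 2 (77.9%), but in 9 of ischemic 1 (7.63%) and 3 of ischemic 2 (2.34%). The ischemic spots were therefore distal convoluted tubule spots by Slc12a3 and not by Pvalb. Slc12a3 stood 22.5, 21.0, 21.6 and 29.6 times higher in the chosen spots than in the other spots of normal 1, normal 2, ischemic 1 and ischemic 2.

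The chosen spots of normal 1 and 2 had a pooled marker share of 0.251% and 0.286%, and those of ischemic 1 and 2 had 0.124% and 0.120%. The last spot inside the choice and the first outside it had 0.154% and 0.153% in normal 1, and 0.170% in both cases in normal 2. In ischemic 1 they had 0.0662% and 0.0660%, and in ischemic 2 0.0572% and 0.0567%. The ischemic sections thus entered the comparison at a lower cutoff, and their chosen spots held 49.5% and 57.6% of all marker UMIs of their section, against 54.0% and 50.2% for normal 1 and 2. The chosen spots summed to 2115481, 1213467, 1341818 and 1139940 UMIs in the same order of sections, with a median per spot between 7108 and 15431.

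The chosen spots lay in the outer part of each section. Their median distance from the tissue edge was 3 steps on the spot grid in normal 1, normal 2 and ischemic 1 and 2 steps in ischemic 2, against 4 to 5 steps for the other spots. Between 45.8% and 61.9% of them touched another chosen spot, in groups of at most 7. One step away, the marker share was already down to 0.0255% in normal 1, 0.0312% in normal 2, 0.0141% in ischemic 1 and 0.00863% in ischemic 2.

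**Figure D1:**
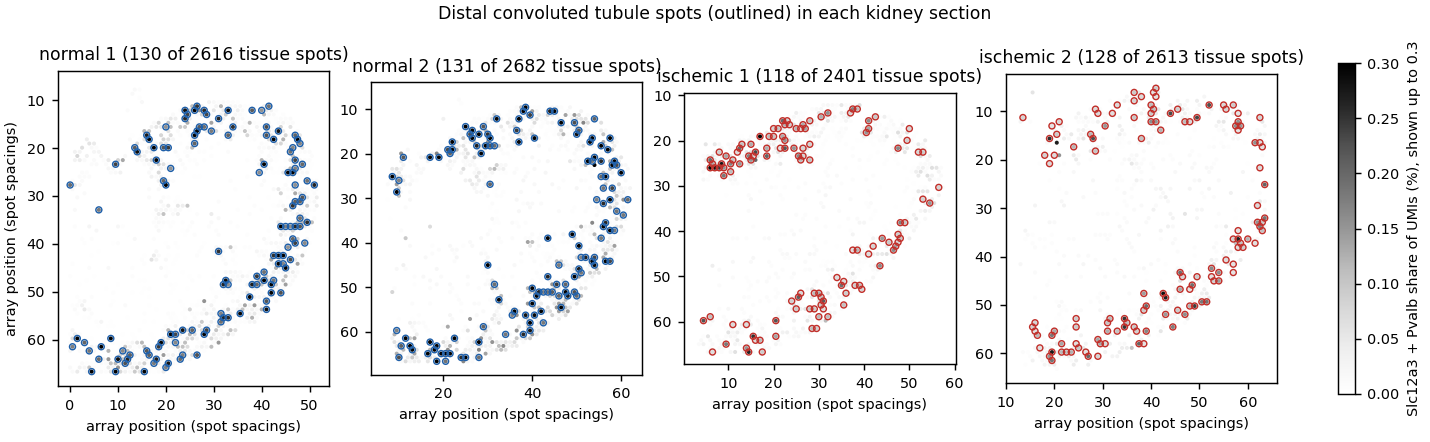
Map of the tissue spots of each section, with both axes in spot spacings, grey for the share of Slc12a3 and Pvalb in a spot's UMIs and coloured rings for the chosen spots. The chosen spots, 118 to 131 per section, form an arc through the outer part of all 4 sections.

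**Figure D2:**
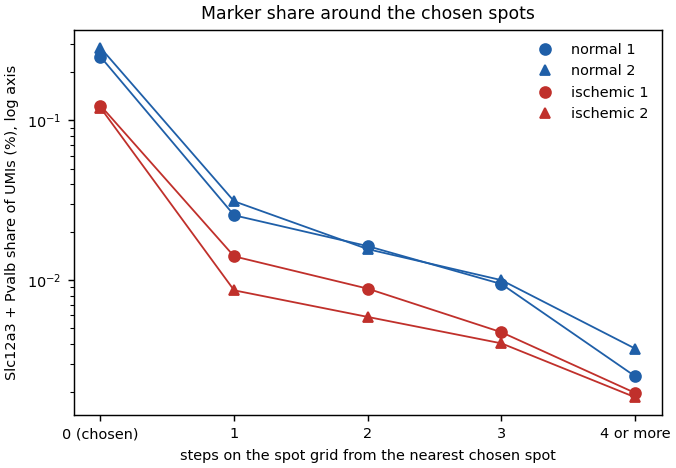
Marker share of pooled UMIs (percent, log axis) against the number of steps on the spot grid from the nearest chosen spot, with a line per section. The share falls from 0.251% and 0.286% in the chosen spots of the normal sections and from 0.124% and 0.120% in those of the ischemic sections to between 0.00185% and 0.00372% at 4 or more steps.

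Other genes that the choice did not name stood out in the same spots. In normal sections the highest ratios of chosen to other spots, after Pvalb and Slc12a3, belonged to Trpm6 (18.8 and 13.8), the transcription factor Sall3 (14.3 and 15.2), the prostaglandin F receptor Ptgfr (12.9 and 13.8) and Klhl3 (12.4 and 12.5). In ischemic sections Slc12a3 was followed by Ptgfr (13.0 and 23.0), Cwh43 (13.8 and 11.6), Ltc4s, which makes leukotriene C4 (8.44 and 9.90), and Calb1, the calbindin of the late segment (9.15 and 6.99). Without the 2 markers, 34, 35, 30 and 33 of 43 genes in 4 lists of distal tubule genes were above the other spots in normal 1, normal 2, ischemic 1 and ischemic 2, where 43.7%, 45.2%, 42.5% and 43.2% of 14960 genes were.

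The promoters of the marker pair and of Egf are shown because Egf had the largest fall of the tested distal genes and because the marker pair set the choice of spots. Each is the RefSeq window of 250 bases before and 50 after the gene's start in GRCm38.p6, at chr8:94328958-94329257 on the + strand for Slc12a3, chr15:78206351-78206650 on the - strand for Pvalb and chr3:129755273-129755572 on the - strand for Egf, the last 2 being the first of 2 windows listed. Capitals mark the TATA box letters TATAAA.
Slc12a3: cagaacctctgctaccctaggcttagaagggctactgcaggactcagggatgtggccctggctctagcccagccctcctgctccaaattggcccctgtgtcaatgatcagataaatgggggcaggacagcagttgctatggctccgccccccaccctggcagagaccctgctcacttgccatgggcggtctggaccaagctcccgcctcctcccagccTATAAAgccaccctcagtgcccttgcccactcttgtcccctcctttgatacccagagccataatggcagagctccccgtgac
Pvalb: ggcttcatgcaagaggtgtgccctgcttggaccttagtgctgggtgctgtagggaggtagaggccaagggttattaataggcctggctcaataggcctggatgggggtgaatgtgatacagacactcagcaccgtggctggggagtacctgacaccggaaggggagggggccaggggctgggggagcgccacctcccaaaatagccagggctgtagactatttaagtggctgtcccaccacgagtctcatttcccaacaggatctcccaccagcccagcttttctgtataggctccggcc
Egf: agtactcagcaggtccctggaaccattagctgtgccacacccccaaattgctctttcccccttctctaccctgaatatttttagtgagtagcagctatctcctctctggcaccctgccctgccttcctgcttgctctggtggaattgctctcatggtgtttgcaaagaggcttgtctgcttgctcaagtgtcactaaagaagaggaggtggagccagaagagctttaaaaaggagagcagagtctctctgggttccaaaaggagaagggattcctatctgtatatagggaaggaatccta
TATAAA was found once, in the Slc12a3 window, and 13.6% of 32817 mouse promoter windows of the same length hold it on either strand. GTTAAT, held by 7.10% of windows, was in none of the 3 shown. The same was true of the AP-1 letters TGANTCA, which 7.81% of windows hold, and of the estrogen-related receptor letters TCAAGGTCA, which 0.424% hold.

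Ischemia changed the chosen spots broadly. In the summed counts, 1489 of 9413 tested genes were higher in ischemic sections (15.8%) and 1552 were lower (16.5%) at an adjusted p under 0.05 in the quasi-likelihood test of edgeR, adjusted after Benjamini and Hochberg. All adjusted p-values below are of this kind. Against this background the distal tubule genes went one way: of 40 tested genes of the 4 distal lists, 27 fell, none rose and 13 did not pass. Their median log2 change was -1.04, beside 0.04 over all tested genes. Nr3c2, Slc41a3 and Irx2 had too few counts to be tested. In these sums, fewer distal cells in a spot and less RNA per cell cannot be told apart.

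**Figure D3:**
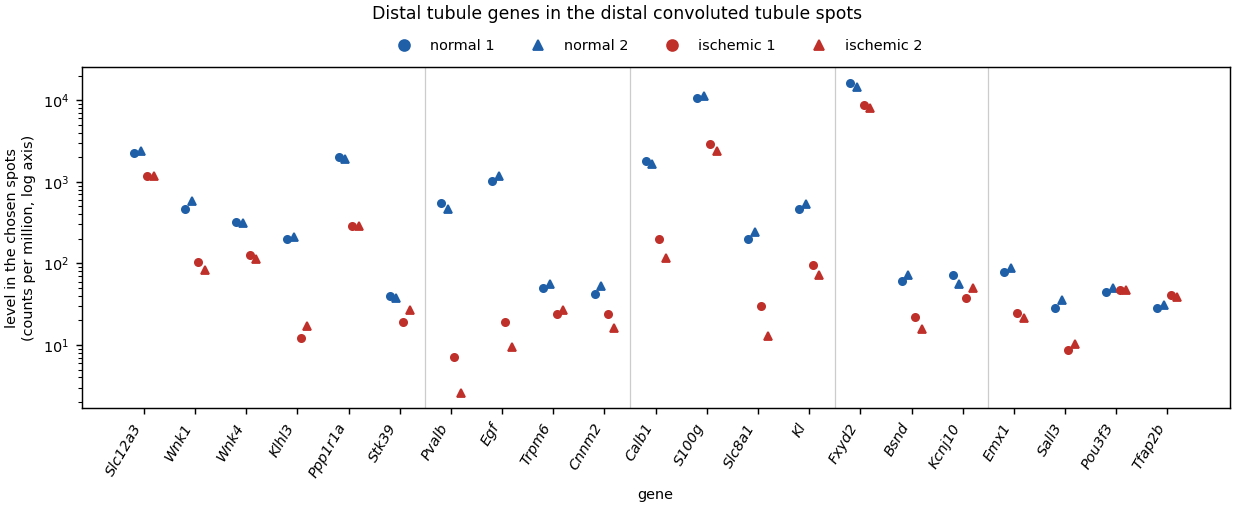
Levels of 21 distal tubule genes in the summed chosen spots of each section (CPM, log axis), ordered as NaCl transport, parvalbumin and magnesium genes, calcium genes, basolateral genes and transcription factors. Both normal sections are above both ischemic sections for every gene drawn except Pou3f3, where the conditions overlap, and Tfap2b, which is at 28.4 and 30.7 when normal and at 40.9 and 38.8 when ischemic. Slc12a3 and Pvalb chose the spots, so their separation is a description only.

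Among the NaCl transport genes, Klhl3, Ppp1r1a and Wnk1 had the largest falls. Slc12a3 (chr8:94329201-94366214, mm10) was at 2239 and 2405 CPM (UMI counts scaled to 1000000 per library) in normal 1 and 2 and at 1186 and 1179 in ischemic 1 and 2, a ratio of means of 1.96. Over whole sections, where the choice of spots plays no part, Slc12a3 fell by 1.25 on the log2 scale (adjusted p = 3.6e-05). Neither condition's sections reached the other's in the chosen spots, which Slc12a3 itself helped to choose, at a lower cutoff in ischemic sections. That separation is a description only.

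Wnk1 (chr6:119923969-120038672), whose kidney form lacks most of the kinase domain and is made chiefly in this segment (the counts do not separate its forms), was at 460 and 587 CPM in normal and 105 and 83.6 CPM in ischemic spots. Its log2 change was -2.46 ± 0.15 (SE, n = 2 sections per condition, adjusted p = 8.1e-11). Klhl3 (chr13:58000228-58113592), the substrate adaptor that brings WNK kinases to the ubiquitin ligase, went from 199 and 212 CPM to 12.2 and 17.2, a log2 change of -3.81 ± 0.19 (adjusted p = 3.4e-12). Neither gene's sections overlapped between conditions.

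Ppp1r1a, an inhibitor of protein phosphatase 1, fell by 2.77 on the log2 scale (adjusted p = 1.0e-12), Wnk4 by 1.41 (adjusted p = 2.4e-08) and Hsd11b2, which shields the mineralocorticoid receptor from glucocorticoids, by 1.19 (adjusted p = 0.00053). Stk39, the gene of SPAK, fell by 0.76 (adjusted p = 0.017), a call lost without normal 1 (adjusted p = 0.071) or without ischemic 1 (adjusted p = 0.21). Hsd11b2 changed by -1.86 without ischemic 1. Oxsr1, Cul3, Nedd4l and Sgk1 did not pass the test, with log2 changes between -0.17 and 0.54. In this list, 6 of 10 tested genes fell and none rose.

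Of the tested genes of magnesium and calcium handling, Egf, Calb1 and Slc8a1 had the largest falls. Pvalb (chr15:78191114-78206400) was at 550 and 470 CPM in the normal and at 7.17 and 2.59 CPM in the ischemic chosen spots. Whole sections held 1779 and 1002 Pvalb UMIs when normal and 12 and 6 when ischemic, a log2 change of -7.19. Pvalb passed the count filter there only through the normal sections, so a test could only have called it lower. Hardly any parvalbumin RNA was left in either ischemic section, inside or outside the chosen spots.

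Egf (chr3:129677565-129755316), the precursor of a growth factor that also stimulates magnesium uptake through TRPM6, went from 1026 and 1168 CPM to 19.4 and 9.48. Its log2 change was -6.20 ± 0.20 (adjusted p = 6.2e-15), and -6.83 without ischemic 1. Trpm6 itself fell from 49.4 and 56.4 CPM to 23.7 and 26.7 (log2 change -1.06 ± 0.21, adjusted p = 0.00047), and Cnnm2, a basolateral protein linked to magnesium transport, fell by 1.19 (adjusted p = 0.00053). Slc41a1 and Trpm7 did not pass, at 0.31 and -0.52.

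Calb1 (chr4:15881264-15908064), which ferries calcium through the cell, went from 1776 and 1659 CPM to 198 and 118, a log2 change of -3.43 ± 0.17 (adjusted p = 3.3e-12). Slc8a1, the basolateral sodium-calcium exchanger, went from 201 and 246 CPM to 30.1 and 12.9 (log2 change -3.31, adjusted p = 1.7e-10; -4.08 without ischemic 1). The co-receptor gene Kl, or Klotho, fell by 2.56 (adjusted p = 3.0e-11). Atp2b4, Vdr and Casr fell by 1.02, 0.58 and 1.23 (adjusted p = 0.0077, 0.0018 and 0.019). The Atp2b4 call was lost without normal 1 (adjusted p = 0.080) and the Casr call without normal 1, ischemic 1 or ischemic 2 (adjusted p = 0.16, 0.089 and 0.087). Trpv5, the apical calcium channel, and Atp2b1 did not pass, with log2 changes of -0.57 and 0.57.

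S100g (chrX:162961992-162964599), the small calbindin, changed unevenly across spots. Its summed level went from 10762 and 11421 CPM to 2909 and 2419 (log2 change -2.06 ± 0.15, adjusted p = 8.3e-10). The median chosen spot, however, held 1753 and 2042 CPM in normal 1 and 2, against 2071 and 1878 in ischemic 1 and 2. It was the upper quartile that differed, at 13124 and 9106 CPM in normal 1 and 2 against 3409 and 3313 in ischemic 1 and 2. Calb1 showed both shifts, with a median spot at 467 and 384 CPM in normal sections and at 0 in both ischemic sections, where 40.7% and 40.6% of chosen spots held a UMI of it. In this list, 10 of 14 tested genes fell and none rose.

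In the basolateral list the barttin gene Bsnd, a chloride channel subunit, fell by 1.77 (adjusted p = 2.3e-06) and Fxyd2, a regulator of the sodium pump, by 0.88 (adjusted p = 8.5e-05). The potassium channel gene Kcnj10 fell by 0.59 (adjusted p = 0.023), which was lost without normal 1 (adjusted p = 0.32) or ischemic 1 (adjusted p = 0.27). Kcnj16 and Atp1b1 did not pass, at -0.32 and -0.28. In all, 5 of the 7 genes of this list fell.

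Of 9 tested transcription factor genes, 6 fell. Emx1 fell by 1.84 (adjusted p = 1.9e-07), Esrrb by 1.79 (adjusted p = 0.00013), Sall3 by 1.73 (adjusted p = 0.00014) and Ppargc1a, a coactivator of mitochondrial genes, by 1.41 (adjusted p = 3.7e-05). Irx1 and Esrrg fell by 1.60 and 0.95 (adjusted p = 0.021 and 0.044), but the Irx1 call was lost without any 1 of the 4 sections and the Esrrg call without normal 2, ischemic 1 or ischemic 2 (adjusted p = 0.169, 0.181 and 0.0989). Pou3f3 and Tfap2b, which act in the development of the distal nephron, did not pass. Pou3f3 was at 44.7 and 49.8 CPM in normal and at 46.6 and 47.4 CPM in ischemic spots, with the conditions overlapping.

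Energy genes fell in the same spots. All 14 tested nuclear genes of the respiratory chain were lower, with log2 changes between -1.25 and -0.58 and Cox4i1 and Sdhb at -1.25 and -1.20. Of 10 genes of the citrate cycle and energy transfer, 9 were lower and none higher, led by the creatine kinase Ckb (-2.05, adjusted p = 4.2e-10) and Idh2 (-1.97, adjusted p = 7.3e-11). Of 12 tested mitochondrially encoded genes, 5 were lower and none higher, with mt-Cytb at -0.84 (adjusted p = 0.00020). The calls of mt-Nd4, mt-Co3 and mt-Nd2 were each lost without ischemic 1 (adjusted p = 0.104, 0.26 and 0.276), that of mt-Co3 also without ischemic 2 (adjusted p = 0.0566) and that of mt-Nd2 without normal 1 (adjusted p = 0.0812).

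Of 12 injury genes 10 rose and none fell, some of them from hardly any UMIs in the normal spots. Lcn2, Havcr1 and Krt20 passed the count filter only through the ischemic sections, so the test could only have called them higher. Lcn2, which encodes the siderophore-binding protein NGAL, had 1 and 0 UMIs in the chosen spots of normal 1 and 2 and 1966 and 1680 in ischemic 1 and 2, a ratio per UMI of 4436 with a counting interval of 796 to 175240. Havcr1, which encodes KIM-1, had 0 and 1 UMIs in the normal and 1193 and 1186 in the ischemic spots. Krt20 had no UMI in the normal spots and was at least 42.2-fold higher (floor of 3 counts over both sections), and Spp1, or osteopontin, rose from 1466 and 1434 CPM to 43233 and 42731 (log2 change 4.89, adjusted p = 3.5e-14). UMIs of Lcn2 were in 97.5% and 95.3% of the chosen spots of ischemic 1 and 2, so the rise was spread over nearly all of them.

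Further genes with the highest fitted rises had hardly any normal UMIs, among them Timp1, an inhibitor of metalloproteinases, which was at 0 and 1.66 CPM when normal and 145 and 192 CPM when ischemic. Timp1 too passed the count filter only through the ischemic sections. The fibrinogen chains Fga and Fgb rose by 5.26 and 5.42 on the log2 scale (adjusted p = 5.0e-14 and 5.8e-12). The Fgb change was 4.59 without normal 1 and 6.38 without normal 2. Aldh1a7, an aldehyde dehydrogenase gene, rose by 5.25 (adjusted p = 1.2e-11). Hesx1 and Cyp4a14 rose by 5.32 and 4.91 (adjusted p = 9.8e-10 and 3.8e-12).

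Of 8 tested immediate early genes, 6 rose, with Junb at 1.99 (adjusted p = 4.0e-06) and Atf3 at 3.18 (adjusted p = 5.7e-05; 4.05 without normal 1). Fosl1 had no UMI in the normal spots, passed the count filter only through the ischemic sections and was at least 23.9-fold higher. Myc too passed that filter only through the ischemic sections. Of 12 stress genes 7 rose and 1 fell, and the metallothioneins Mt1 and Mt2, which bind metals, rose by 2.34 and 3.45 (adjusted p = 1.3e-10 and 1.5e-12). Hmox1, or heme oxygenase, rose by 3.31 (adjusted p = 1.6e-10; 4.11 without normal 1). After Egf, the largest falls were those of the organic anion transporter Slc22a7 (84.6 and 78.8 CPM to 0.717 and 1.72) and the methyltransferase gene Inmt (-6.02, adjusted p = 6.2e-15). Slc22a7 passed the count filter only through the normal sections, so the test could only have called it lower. It had 256 UMIs in the normal and 3 in the ischemic spots, a ratio with a counting interval of 23.7 to 342.

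**Figure D4:**
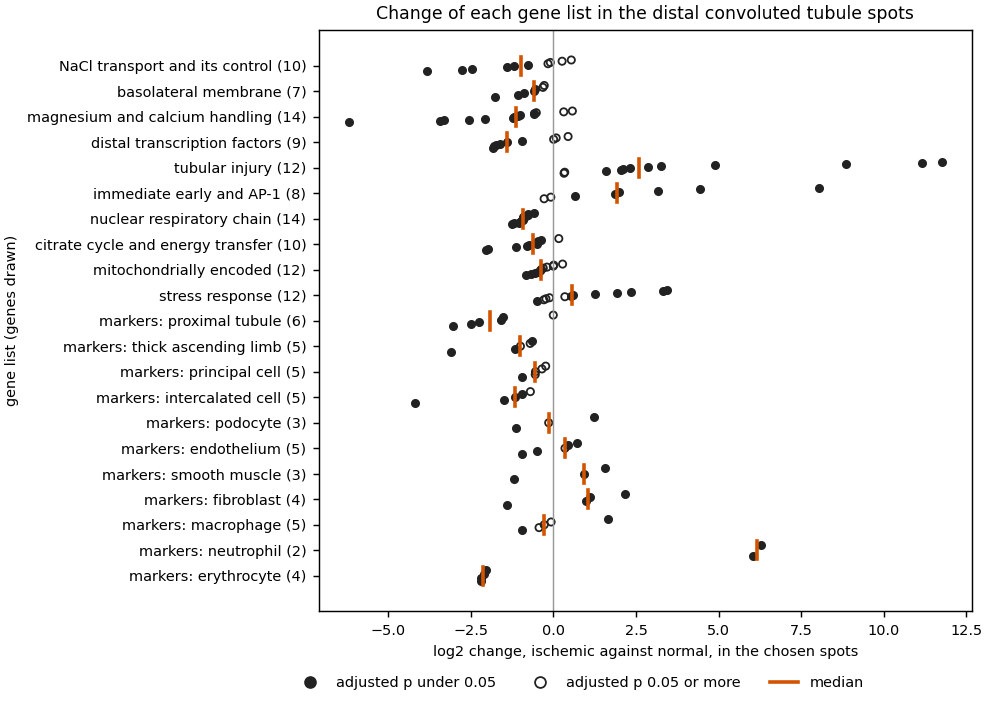
Log2 change with ischemia in the chosen spots (horizontal axis) for each tested gene of 21 lists, filled where the adjusted p was under 0.05, with the list median as a bar. The 4 distal lists and the energy lists lie mostly left of 0 and the injury and immediate early lists mostly right of 0.

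RNA of neighbouring cell types was present in the chosen spots and moved with the condition. The summed level of 6 proximal tubule markers was 3403 and 3385 CPM in normal and 878 and 886 CPM in ischemic chosen spots, and 5 of the 6 fell. The 5 thick ascending limb markers summed to 3124 and 3148 CPM and then to 1592 and 1455, with 3 fallen. Intercalated cell markers went from 455 and 542 CPM to 285 and 182, with 4 of 5 fallen, while principal cell markers ranged from 202 to 322 CPM in normal and 167 to 234 in ischemic spots, with 1 fallen. The Aqp3 call among principal cell markers and the Foxi1 call among intercalated cell markers were each lost without at least 1 section. Among the fallen intercalated cell markers, Slc4a1 passed the count filter only through the normal sections.

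The 4 neutrophil markers summed to 0.473 and 0.824 CPM in normal and 64.8 and 59.7 CPM in ischemic chosen spots, with S100a8 and S100a9 at 1 UMI each in the normal and 69 and 81 in the ischemic spots. These 2 passed the count filter only through the ischemic sections. The 5 erythrocyte markers went the other way, from 2519 and 2797 CPM to 511 and 810, and all 4 tested fell. Fibroblast markers were at 90.8 and 101 CPM when normal and 171 and 188 CPM when ischemic, with 3 of 4 risen and Dcn fallen by 1.42 (adjusted p = 0.00046). Of 3 tested smooth muscle markers, Tagln rose by 1.55 (adjusted p = 6.1e-05), Acta2 rose by 0.91 (adjusted p = 0.0037, lost without normal 1 at adjusted p = 0.17) and Myh11 fell by 1.19 (adjusted p = 0.0062). The macrophage sum ranged from 91.7 to 120 CPM in normal and 90.4 to 112 in ischemic spots, the endothelial sum from 254 to 339 and from 297 to 344, and the podocyte sum from 108 to 132 and from 109 to 128. As many of their genes rose as fell, 1 each way for macrophages and podocytes and 2 each way for endothelium, and each of these calls except that of Kdr was lost without at least 1 of the sections. T cell markers were at 10.4 and 14.8 CPM and then 2.98 and 0, too low to test. The part of these cell types in the changes above was not tested.

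The next question was where the chosen spots differed from the rest of the same section. The change with ischemia was compared between chosen and other spots, with the section as a block. The difference was positive for 780 of 14960 tested genes (5.21%) and negative for 535 (3.58%). With no section block, 461 genes were called, against 1315 with it. With relative log expression scaling the split of called genes was 1023 to 392, and the number of calls fell to 839 without normal 1, 814 without ischemic 1 and 773 without ischemic 2. Of 43 tested distal genes, 13 had a negative and 2 a positive difference. Over whole sections 31.0% of 15305 genes were higher and 29.7% lower. Of the 45 distal genes, which here include Slc12a3 and Pvalb, 31 were lower and 4 higher. The whole-section calls of Wnk1, Nr3c2, Kcnj16, Atp1b1, Fxyd2, Trpm7, S100g and Pou3f3 were each lost without at least 1 section.

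Wnk1 had the most negative difference of the distal genes that could also be tested in the chosen spots alone. On the joint scale of this comparison it was at 449 and 564 CPM in the chosen spots of normal 1 and 2 and at 101 and 81.3 in those of ischemic 1 and 2. In the other spots it was at 71.6 and 82.8 CPM when normal and 68.9 and 69.5 when ischemic. The chosen spots of normal sections stood 6.24 and 6.78 times above the others, those of ischemic sections 1.47 and 1.17 times. The difference in change was -2.29 ± 0.12 on the log2 scale (adjusted p = 5.2e-75).

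Klhl3 fell in both kinds of spot and more in the chosen ones, from 195 and 204 CPM to 11.8 and 16.8 there and from 15.2 and 15.8 to 4.45 and 4.36 elsewhere (difference -2.01, adjusted p = 7.1e-14). S100g had a difference of -1.29 (adjusted p = 3.2e-36), Slc8a1 of -1.23 (adjusted p = 4.5e-07; -1.91 without ischemic 1) and Ppp1r1a of -0.93 (adjusted p = 1.9e-17). Wnk4 had -0.71 (adjusted p = 4.4e-07). Stk39 fell in the chosen spots and was higher elsewhere, at 13.8 and 14.6 CPM in the other spots when normal and 29.2 and 29.7 when ischemic (difference -1.82, adjusted p = 4.2e-12).

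Some distal differences lost their call when a section was left out, which leaves 1 section in a condition. The Trpm6 difference of -1.23 (adjusted p = 0.000815) was -0.84 without normal 1 and -0.88 without ischemic 1, and its call was lost in both cases. The Calb1 difference of -0.51 was lost without normal 1 (-0.22) or ischemic 2 (-0.38) and was 0.22 with the top 2.5% of spots. The Kl difference of -0.40 lost its call without any 1 of the 4 sections, with values between -0.58 and -0.29. The Atp2b4 difference of -1.30 was -1.02 without normal 1, and its call was lost. Egf had no difference past the threshold, at 0.14 ± 0.29 (adjusted p = 0.87): it fell from 587 and 644 CPM to 7.29 and 7.88 in the other spots as well. The positive difference of Kcnj16 (0.33, adjusted p = 0.018) was 0.12 without ischemic 1, and its call was lost.

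Defb1, the gene of an antimicrobial beta-defensin, had the most negative difference of all the genes named. In the chosen spots it went from 3789 and 3386 CPM to 1038 and 869, whereas in the other spots it went from 411 and 446 CPM to 1347 and 1374. The difference was -3.58 ± 0.10 (adjusted p = 1.5e-298), and the order of chosen and other spots was turned round between the conditions. Isyna1, the first enzyme of inositol synthesis, followed the same course, from 137 and 140 CPM to 65.8 and 91.4 in the chosen spots and from 55.6 and 66.5 to 153 and 156 elsewhere (difference -2.20, adjusted p = 3.9e-49). Tmem65 and Upp1, a uridine phosphorylase, also fell in the chosen spots and had differences of -2.37 and -2.25 (adjusted p = 4.5e-25 and 2.7e-11). The Upp1 difference was -2.95 without ischemic 1. Fkbp11, Rasd1 and Gm45716 had differences of -2.81, -2.35 and -2.35 without passing the test in the chosen spots themselves.

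Among the positive differences, Sprr1a rose from 2.57 and 7.97 CPM to 108 and 122 in the chosen spots and was at 119 and 282 CPM in the other spots when normal and 452 and 437 when ischemic (difference 3.33, adjusted p = 6.5e-25). Cyp4a10, a fatty acid hydroxylase, went from 51.9 and 39.9 CPM to 305 and 338 in the chosen spots and from 222 and 149 to 256 and 211 elsewhere (difference 2.48, adjusted p = 1.1e-63). The Lcn2 difference of 3.23 (adjusted p = 0.0499) rested on its 1 normal UMI and was lost without normal 2, ischemic 1 or ischemic 2 (adjusted p = 0.165, 0.105 and 0.0609), and was 8.82 without normal 1. Mt1 and Mt2 rose less in the chosen spots, with differences of -1.78 and -2.07 (adjusted p = 1.1e-61 and 1.1e-47). Of the 12 injury genes, 5 had a negative and 1 a positive difference, with a median of -0.52. Over all tested genes, 3.58% were negative and 5.21% positive. Acox2 was at 34.9 and 22.3 CPM when normal and 25.6 and 39.4 when ischemic in the chosen spots, and at 135 and 91.6 and then 25.7 and 25.9 in the others (difference 2.29, adjusted p = 3.6e-18).

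**Figure D5:**
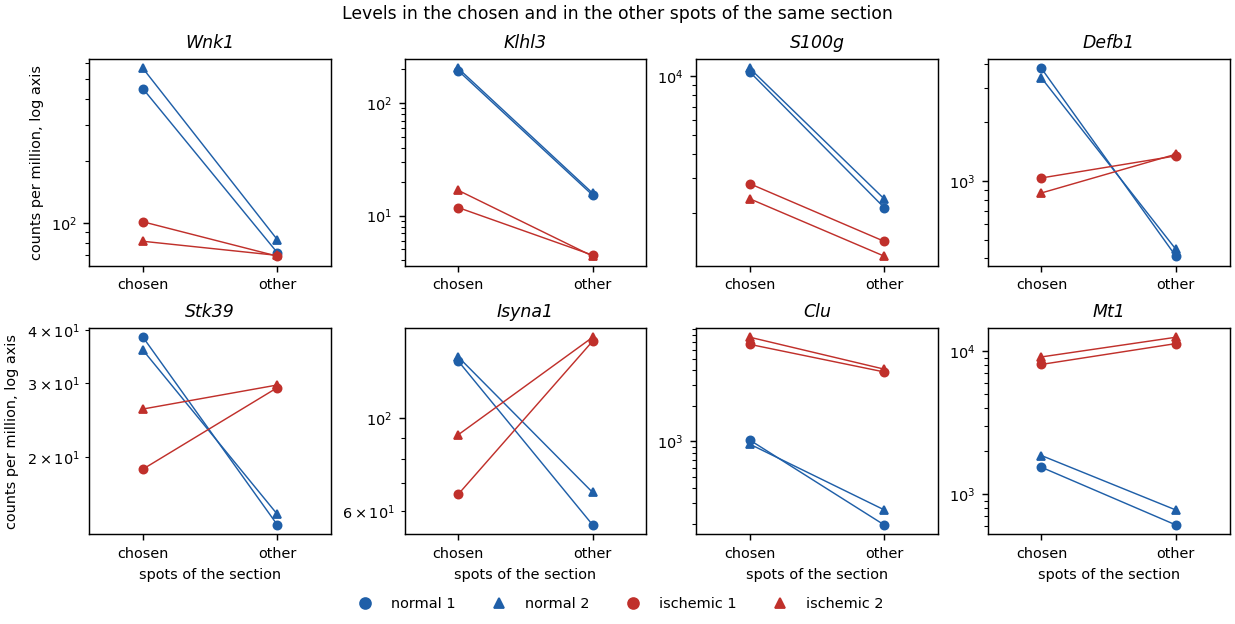
Levels of 8 genes in the chosen spots and in the other spots of the same section (CPM on the joint scale, log axes), with a line per section. Wnk1 in ischemic chosen spots, at 101 and 81.3, stands 1.47 and 1.17 times above the other spots, and the Defb1, Stk39 and Isyna1 lines slope in opposite directions in the normal and ischemic sections.

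Set against the 474 proximal tubule spots, the top 5% by Slc5a2 and Slc5a12 without those already chosen, the difference in change was positive for 130 of 10670 genes (1.22%) and negative for 100 (0.937%). The calls fell to 93 without ischemic 1 and 72 without ischemic 2. Of 42 tested distal genes, 9 had a negative and 1 a positive difference. S100g led them at -2.67 (adjusted p = 1.1e-19), with 2512 and 1866 CPM in normal and 3284 and 3264 CPM in ischemic proximal tubule spots, against a fall in the chosen spots. Wnk1 had -2.02 (adjusted p = 3.9e-08) and Wnk4 -1.32 (adjusted p = 2.6e-05). The Klhl3 difference of -2.35 (adjusted p = 0.00636) was lost without ischemic 1 (adjusted p = 0.225) or ischemic 2 (adjusted p = 0.109), and that of Slc8a1, -2.47, was lost without ischemic 2 (adjusted p = 0.196) and was -3.51 without ischemic 1. Spots in both top sets numbered 2, 3, 17 and 11 in normal 1, normal 2, ischemic 1 and ischemic 2.

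Against the 507 thick limb spots, the top 5% by Slc12a1 and Umod, 688 of 10670 differences were positive (6.45%) and 229 negative (2.15%). The calls fell to 601 without normal 1, 485 without ischemic 1 and 436 without ischemic 2. Of 42 tested distal genes, 7 had a negative and 5 a positive difference. Clu, which encodes the chaperone clusterin, rose in both, from 1117 and 1020 CPM to 7121 and 8097 in the chosen spots and from 32.0 and 39.6 to 6424 and 6948 in the thick limb spots (difference -4.74, adjusted p = 3.8e-27). Both ended at a like level from unlike starts. Wnk1 had -2.42 (adjusted p = 2.2e-11) and S100g -3.00 (adjusted p = 9.5e-19), and Wnk4 did not pass, at 0.02 (adjusted p = 0.97). Of 14 nuclear respiratory chain genes, 9 had a positive difference from the thick limb spots and none a negative one, while none of the 14 passed against the other spots (median 0.03) or the proximal tubule spots (median -0.20).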

How the data were processed

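Visium spatial expression was measured in 4 mouse kidney sections, 2 normal and 2 ischemic, permeabilized for 12 min. The deposited matrices hold raw UMI counts per gene and spot, made by the authors with Space Ranger 1.3.0 per the file headers on mm10 per the labels, for 32285 genes, with no normalization. Totals over tissue spots ranged from 25957128 to 44528078 UMIs per section.

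Spots were chosen per section, and raw counts were summed per section and set of spots. Sums were tested with edgeR 4.0.16 in R 4.3.3 (TMM scaling, filterByExpr, quasi-likelihood test, Benjamini-Hochberg threshold of 0.05). Differences between sets of spots had the section as a block. Genes used to choose spots were not tested there. CPM (scaled to 1000000) use TMM library sizes and lie on a joint scale where several sets were fitted together, while list sums are scaled to 1000000 UMIs with no such factor. SE is the absolute log2 change divided by the square root of F. Ratios of chosen to other spots had 0.5 CPM added to both. Counting intervals (exact, 95%) and floors cover counting error only. Coordinates are from GENCODE vM21 (GRCm38, the same build as mm10) for 99.6% of gene IDs.

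Named genes were the 4 distal lists, up to 4 called genes of each other list with the largest change, the 12 largest rises and falls without overlap at a mean of at least 20 CPM, the 8 largest differences of each sign from other spots and 5 from proximal tubule and thick limb spots, and the 10 genes with the highest ratios. Members and lists were chosen with earlier results of these data known. Some values of Mt1, Mt2, Spp1, Wnk1, Wnk4 and other named genes outside the comparison that named them were picked after they were seen. Values of some genes counted in the lists are not reported here.

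On simulated counts for the comparison of conditions (9415 genes), 87 of 100 genes changed by a log2 of 1 and 99 of 100 changed by 2 were recovered, with 3 false calls. For the difference from other spots (14962 genes) these were 85 and 100 of 100, with 5 false calls. Alternatives were DESeq2 1.42.0, other scaling, no filter, a test against a fold of 1.5, each section left out, other shares of spots, UMI minimums, markers and cutoffs, thinned counts and other blocks. A choice with normal marker counts thinned to the ischemic share was added after seeing the data.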

Additional observations from a re-analysis of the deposited data

Results flagged for a closer look

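The change with ischemia differed between the chosen and other spots of the same sections, by a test of the difference itself, for the genes listed here as log2 differences. Negative differences from the other spots were found for Wnk1 (-2.29), Wnk4 (-0.71), Stk39 (-1.82), Klhl3 (-2.01), Ppp1r1a (-0.93), Trpm6 (-1.23), Slc41a3 (-2.67), Calb1 (-0.51), S100g (-1.29), Slc8a1 (-1.23), Atp2b4 (-1.30) and Kl (-0.40) of the distal lists. Beyond those lists they were found for Defb1 (-3.58), Fkbp11 (-2.81), Tmem65 (-2.37), Rasd1 (-2.35), Gm45716 (-2.35), Upp1 (-2.25) and Isyna1 (-2.20). Of the distal genes, the Trpm6, Calb1, Atp2b4 and Kl calls were each lost without at least 1 section, as given above.

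Positive differences from the other spots were found for Kcnj16 (0.33), Lcn2 (3.23), Sprr1a (3.33), Fam25c (2.62), Cyp4a10 (2.48), Acox2 (2.29), Slc23a1 (2.27), Car3 (2.21) and Slc9a8 (2.20). The Car3, Kcnj16 and Lcn2 calls were each lost without at least 1 section, with the Car3 difference at 1.79 without ischemic 1.

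Against proximal tubule spots, the differences of Klhl3 (-2.35), S100g (-2.67), Slc8a1 (-2.47), Ren1 (-3.08) and Cpt1b (-2.97) were negative and those of Fga (1.93), Fgg (2.11), Rnf183 (2.03), Jun (1.80) and Atxn1 (1.65) positive. The Klhl3 and Slc8a1 calls were each lost without at least 1 section, as given above. The Cpt1b call was lost without ischemic 1 (adjusted p = 0.26) and the Atxn1 call without normal 1 or ischemic 1 (adjusted p = 0.092 and 0.40). The Ren1 difference was -1.75 without normal 1, whose chosen spots held 265 CPM of Ren1 against 67.2 in normal 2.

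Against thick limb spots, the differences of S100g (-3.00), Defb1 (-4.02), Rasd1 (-4.31), Clu (-4.74) and Gm32461 (-4.02) were negative and those of Lcn2 (3.75), Acox2 (4.04), Aldh1a1 (4.86), Apobec2 (4.52) and Cyp4a12a (4.16) positive. The Apobec2 call was lost without normal 1 or ischemic 1 (adjusted p = 0.092 and 0.24), and the Apobec2 difference was 5.25 without normal 2 and 7.03 without ischemic 2. Without normal 1 the differences of Lcn2, Aldh1a1 and Rasd1 were 5.66, 4.22 and -4.91. Without ischemic 1 those of Acox2 and Aldh1a1 were 5.13 and 5.98, and without ischemic 2 that of Acox2 was 3.28. The differences against other, proximal tubule and thick limb spots share the chosen spots and are not independent of each other.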

How the results depend on the processing

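The number of genes called in the chosen spots, 3041, was 1580 with DESeq2, 1294 against a fold of 1.5, 1997 with 2.5% of spots and 2373 to 2826 with a section left out. For the difference from other spots, 1315 became 625 with DESeq2 (80.3% positive, against 59.3%), 274 against a fold of 1.5, 704 with 2.5% of spots, 2020 with 10%, 720 with 1 cutoff for all sections, 461 with no section block and 773 to 1317 with a section left out (78.4% positive without normal 1). For the difference from proximal tubule spots, 230 became 47 with DESeq2 (31.9% positive, against 56.5%), 41 against a fold of 1.5, 135 with 2.5% of spots, 78 with 10%, 124 with 1 cutoff, 76 with no section block and 72 to 194 with a section left out. For thick limb spots, 917 became 303 with DESeq2, 312 against a fold of 1.5, 423 with 2.5% of spots, 524 with no section block and 436 to 780. Over whole sections 9279 became 4466 against a fold of 1.5 and 6493 to 10877 with a section left out.

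With the replicate number as a block, 3143 genes were called in the chosen spots and 10089 over whole sections. The numbers did not pair the sections (correlation of deviations of same-numbered sections across genes -0.0024). Choosing normal spots on thinned marker counts gave 3226, 1253, 222 and 904 calls in the first 4 comparisons. Pvalb alone was not run, since 11 and 6 spots of ischemic 1 and 2 held a Pvalb UMI.

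Named genes that turned direction were few, and the cause was not tested. Of called values, the Calb1 difference was at 0.22 with 2.5% of spots. The other turns were of genes not past the threshold in the chosen spots. With a section left out, Cul3 ranged from -0.25 to 0.089, Slc41a1 from -0.12 to 0.66 and Pou3f3 from -0.0801 to 0.032. With 2.5% of spots Cul3 and Sgk1 were at 0.23 and 0.19. With 10%, Trpv5 was at 0.12. With 1 cutoff Cul3 was at 0.15. With counts thinned to the smallest section Cul3, Sgk1 and Pou3f3 were at 0.0057, 0.11 and -0.0992, and Pou3f3 was at -0.021 with DESeq2 and -0.016 with other scaling. Depth limits low genes: Nr3c2, Slc41a3 and Irx2 could not be tested in the chosen spots.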
